A study of Mus musculus with 4 samples.

Results

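The genes described here are 10 genes of neurogenesis and immature neurons in the mouse hippocampus, taken by symbol from the deposited table: Sox2, Ccnd2, Sox11, Sox4, Neurod1, Dcx, Tubb3, Neurod2, Bhlhe22 and Prox1. All 10 were found among the 15713 genes of the table, and all 10 were tested. Messenger RNA was sequenced in 4 hippocampus libraries from C57BL/6 mice, an inbred laboratory strain, at 11 to 12 weeks of age. The 2 control libraries came from untreated mice. The other 2 libraries came from mice with a developmental exposure to ATO at 5000 ppb; the labels do not spell out ATO, its route or the days of exposure, and the series title speaks of arsenic and of offspring. The labels do not say whether a library was 1 animal or a pool or give the sex of the animals. The p-values set the group difference against the variation between these libraries, moderated across genes. Whether that variation is between single animals is not known. Counts summed to between 14832214 and 17251032 per library, and 1 count was worth 0.0574 to 0.0678 CPM (counts scaled by library size).

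The dentate gyrus of the hippocampus keeps making granule neurons in adult rodents. Radial glia-like stem cells give rise to dividing progenitors and neuroblasts, which pass through an immature stage before they become mature granule neurons. Transcription factors of the Sox and basic helix-loop-helix (bHLH) families mark successive steps of this path, and several of them remain on in mature neurons or in glia. In whole tissue, a change in the number of cells of one type and a change in RNA per cell cannot be told apart.

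Of the 10 genes, 3 rose in ATO and 1 fell in edgeR's quasi-likelihood test at an adjusted p under 0.05. Those that rose were the bHLH repressor gene Bhlhe22 (1.45-fold), the D-type cyclin gene Ccnd2 and the immature neuron factor gene Sox11 (both 1.41-fold). The gene that fell was the stem cell factor gene Sox2, which was 1.32-fold lower in ATO. Over all genes 2.87% passed higher and 0.859% passed lower. The median log2 fold change was 0.25 over the 10 genes and -0.00496 over all genes, and this difference of medians was not tested. The 10 genes, and the gene lists below, were chosen with earlier results of these data known. Their shares and medians beside those of all genes are therefore description only. Doublecortin (Dcx), the classical marker of immature granule neurons, did not pass, with a log2 fold change of -0.10 and a 95% interval from -0.41 to 0.21.

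Promoter sequences are shown for the genes that passed in opposite directions, Sox11 and Sox2, and for the neuron lineage genes whose window held the NeuroD-type E-box. Each run gives the 250 bases before the start site on the strand of the gene, 5′ to 3′, from RefSeq on GRCm38.p6, and capitals mark CAGATG. RefSeq windows were matched for 8 of the 10 genes (10 windows); the other two, Bhlhe22 and Ccnd2, are named only.
Sox11: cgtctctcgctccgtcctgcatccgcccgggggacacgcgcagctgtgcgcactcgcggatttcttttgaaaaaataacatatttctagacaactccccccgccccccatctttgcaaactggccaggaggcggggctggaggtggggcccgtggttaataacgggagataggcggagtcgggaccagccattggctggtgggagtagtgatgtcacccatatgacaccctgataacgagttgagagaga
Sox2: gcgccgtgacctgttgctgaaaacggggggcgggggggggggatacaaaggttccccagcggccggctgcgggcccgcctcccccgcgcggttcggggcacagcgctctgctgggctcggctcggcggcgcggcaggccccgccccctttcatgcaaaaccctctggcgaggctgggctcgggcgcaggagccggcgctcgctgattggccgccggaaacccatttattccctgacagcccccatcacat
Neurod2: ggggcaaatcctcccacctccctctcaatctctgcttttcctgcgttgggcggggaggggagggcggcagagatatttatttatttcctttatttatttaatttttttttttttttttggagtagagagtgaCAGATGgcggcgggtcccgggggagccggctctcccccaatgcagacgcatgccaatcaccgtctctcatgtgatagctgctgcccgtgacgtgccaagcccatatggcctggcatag
Prox1: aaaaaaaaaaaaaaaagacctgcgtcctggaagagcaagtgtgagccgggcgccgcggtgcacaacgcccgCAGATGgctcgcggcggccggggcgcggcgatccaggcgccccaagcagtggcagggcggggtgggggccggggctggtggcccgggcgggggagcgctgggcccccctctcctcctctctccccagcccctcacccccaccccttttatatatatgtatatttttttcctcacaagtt
The windows lie at chr12:27342719-27342968 (minus strand) for Sox11, chr3:34649745-34649994 (plus strand) for Sox2, chr11:98329646-98329895 (minus strand) for Neurod2 and chr1:190170828-190171077 (minus strand) for Prox1. CAGATG or its reverse complement CATCTG was found once each in the Neurod2 window, 118 bases before the start, and in the more upstream of the Prox1 windows, 179 bases before it; among all 32851 windows of this length 14.4% held a match. The SOX core motif ACAAT, searched with its reverse complement ATTGT, was found in the Tubb3 window only among the 10 windows, against 27.7% of all windows. A match is a run of letters and was not tested for binding.

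Sox2 is needed to keep neural stem cells undifferentiated and is also expressed in astrocytes. Its normalised CPM was 45.3 and 41.5 in control replicates 1 and 2 and 34.2 and 31.7 in ATO replicates 1 and 2. Both ATO libraries lay below both controls. Sox2 (ENSMUSG00000074637, GRCm38 chromosome 3 from 34650405 to 34652461, plus strand) went from 43.4 ± 2.73 to 33.0 ± 1.76 CPM (mean ± SD, n = 2 per group), which is -0.40 ± 0.10 (SE) as a log2 fold change (adjusted p = 0.0417). The call was close to the threshold and was lost when any 1 of the 4 libraries was left out, with adjusted p from 0.0583 (without ATO replicate 1) to 0.184 (without ATO replicate 2). Sox2 did not pass in DESeq2's Wald test (0.115) or with library size only (0.0514). Sox2 sits inside the long non-coding gene Sox2ot on the same strand, whose exons do not overlap those of Sox2. Sox2ot had counts of 470 and 435 in control and 561 and 543 in ATO, and its log2 fold change was 0.10 (adjusted p = 0.683).

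Ccnd2 encodes cyclin D2, which drives entry into the cell cycle with the kinases CDK4 and CDK6 and is required for adult-born granule neurons. It was at 70.9 and 74.4 CPM in control and at 106 and 99.03 CPM in ATO. The groups did not overlap, and each pair of replicates differed by less than the gap between the groups. Ccnd2 (ENSMUSG00000000184, chromosome 6 from 127125162 to 127152193, minus strand) rose by log2 0.50 ± 0.08 (adjusted p = 0.00252), from 72.6 ± 2.46 to 102.7 ± 5.15 CPM. The rise passed in all 12 alternative settings, with log2 fold changes from 0.45 to 0.55. Among these settings, the fit without a filter on low counts repeats the main fit. Exons of the antisense transcript 9330179D12Rik overlap those of Ccnd2 on the opposite strand; it had 27 and 35 counts in control and 16 and 17 in ATO.

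**Figure D1:**
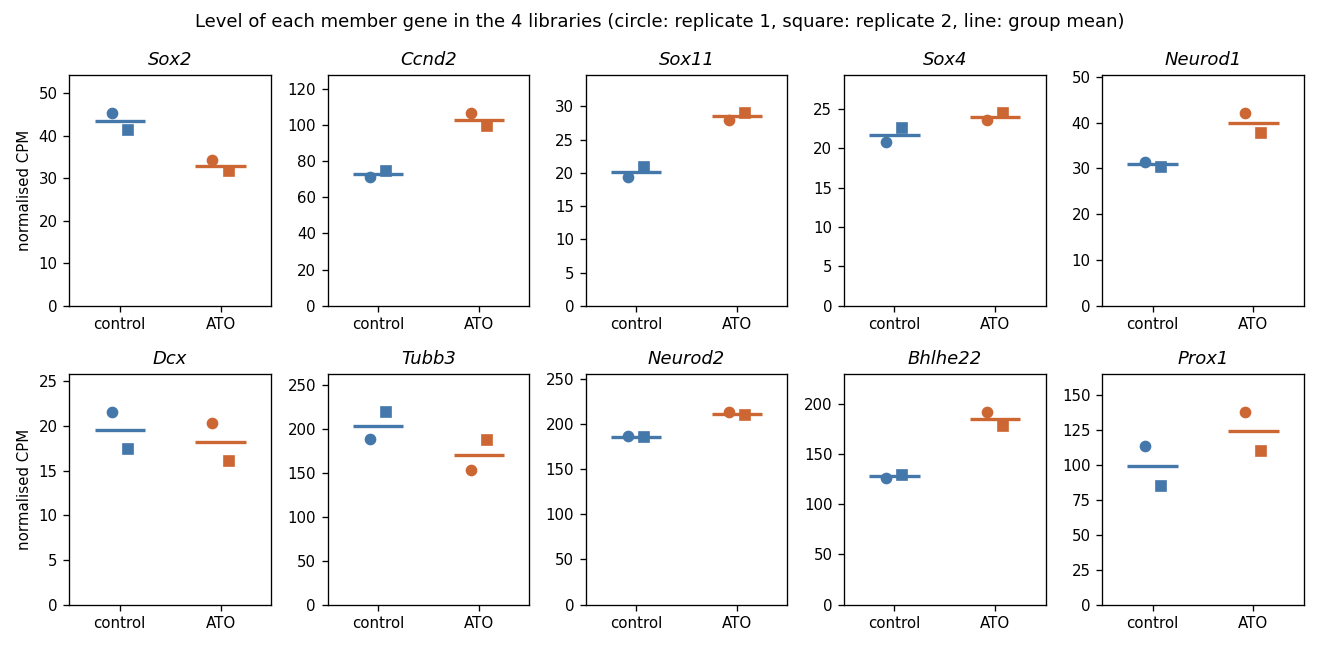
Normalised CPM (vertical axes, from 0) of each of the 10 genes in the control and ATO groups, with circles for replicate 1, squares for replicate 2 and lines for the group means. Bhlhe22, Ccnd2 and Sox11 are higher and Sox2 is lower in both ATO libraries, while the Dcx and Prox1 groups overlap.

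Sox11 and Sox4 encode the SoxC factors, which switch on genes such as Dcx and Tubb3 in newborn neurons. Sox11 was at 19.4 and 20.9 CPM in the controls and at 28.0 and 29.0 CPM in ATO. Both ATO libraries were higher, and the spread within each group was small beside the gap. Sox11 (ENSMUSG00000063632, chromosome 12 from 27334264 to 27342574, minus strand) rose by log2 0.50 ± 0.11 (adjusted p = 0.0237), from 20.1 ± 1.03 to 28.5 ± 0.666 CPM. Its call was lost when any 1 library was left out (adjusted p from 0.0505 without ATO replicate 1 to 0.0788 without control replicate 1) and in DESeq2's Wald test (0.0793), while the log2 fold change stayed between 0.45 and 0.55. Sox4 (ENSMUSG00000076431, chromosome 13 from 28948919 to 28953713, minus strand) was at 20.8 and 22.5 CPM in control and 23.5 and 24.4 CPM in ATO. Its groups also did not overlap, but the log2 fold change was 0.15 with a 95% interval from -0.10 to 0.39 (adjusted p = 0.546). The ratio of Sox11 to Sox4 counts was 0.932 and 0.926 in control against 1.19 and 1.18 in ATO.

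Neurod1 encodes a bHLH activator needed for the survival of newborn granule neurons. It was at 31.5 and 30.3 CPM in control and 42.0 and 37.6 CPM in ATO. Both ATO libraries were higher than both controls, but Neurod1 (ENSMUSG00000034701, chromosome 2 from 79452521 to 79456751, minus strand) did not pass (log2 0.37 ± 0.10, adjusted p = 0.0606). It passed without ATO replicate 2 (adjusted p = 0.0477) and had an adjusted p of 0.444 without ATO replicate 1. Some exons of Cerkl on the same strand overlap Neurod1; Cerkl had 32 and 32 counts in control and 47 and 46 in ATO, against 464 and 458 and 732 and 625 counts for Neurod1.

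Dcx and Tubb3 encode structural proteins of the young neuron's microtubules, doublecortin and the neuronal class III beta-tubulin, and Tubb3 remains on in mature neurons. Dcx was at 21.6 and 17.5 CPM in the controls and 20.3 and 16.1 CPM in ATO, so the groups overlapped and the replicates of each group differed more than the group means did. Dcx (ENSMUSG00000031285, chromosome X from 143855842 to 143933311, minus strand) had an adjusted p of 0.781, and the sign of its log2 fold change turned positive without control replicate 1 and without ATO replicate 2 (0.06 in both fits). Tubb3 (ENSMUSG00000062380, chromosome 8 from 123411424 to 123422015, plus strand) was at 188 and 219 CPM in control and 153 and 187 CPM in ATO. The lower control and the higher ATO library almost met, and Tubb3 did not pass (log2 -0.26 ± 0.10, adjusted p = 0.179). Without ATO replicate 2 the log2 fold change of Tubb3 was -0.41 (adjusted p = 0.0208), and without ATO replicate 1 it was -0.12 (0.834).

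Neurod2, Bhlhe22 and Prox1 encode transcription factors of neuron lineages. Neurod2 acts in the differentiation of excitatory neurons, Bhlhe22 (also known as Bhlhb5) is a bHLH repressor of projection neurons, and Prox1 sets and maintains granule neuron identity. Bhlhe22 was at 126 and 129 CPM in the controls and 192 and 178 CPM in ATO. The lower ATO library stood well above the higher control. Bhlhe22 (ENSMUSG00000025128, chromosome 3 from 18054174 to 18057517, plus strand) rose by log2 0.53 ± 0.08 (adjusted p = 0.000868), from 127.7 ± 2.38 to 184.8 ± 9.79 CPM. It passed in all 12 alternative settings (log2 fold changes from 0.48 to 0.59), of which the fit without a filter repeats the main fit.

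Neurod2 (ENSMUSG00000038255, chromosome 11 from 98325415 to 98329648, minus strand) was at 187 and 186 CPM in control and 213 and 209.7 CPM in ATO. The replicates were close together and the groups did not overlap, but the gap was small (log2 0.18 ± 0.07) and did not pass (adjusted p = 0.190). Prox1 (ENSMUSG00000010175, chromosome 1 from 190118035 to 190170714, minus strand) was at 114 and 85.2 CPM in control and 138 and 110.3 CPM in ATO. ATO replicate 2 lay below control replicate 1, so the groups overlapped, and the log2 fold change of 0.32 ± 0.12 did not pass (adjusted p = 0.180). Exons of the antisense transcript Prox1os overlap those of Prox1 on the opposite strand. Prox1os had 101 and 67 counts in control and 119 and 74 in ATO. Prox1 itself had 1676 and 1287 counts in control and 2401 and 1832 in ATO. The fold change of Prox1 rested on single libraries: it was 0.54 without control replicate 1 (adjusted p = 0.0399) and 0.47 without ATO replicate 2 (0.00359), but 0.12 without control replicate 2 and 0.15 without ATO replicate 1.

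**Figure D2:**
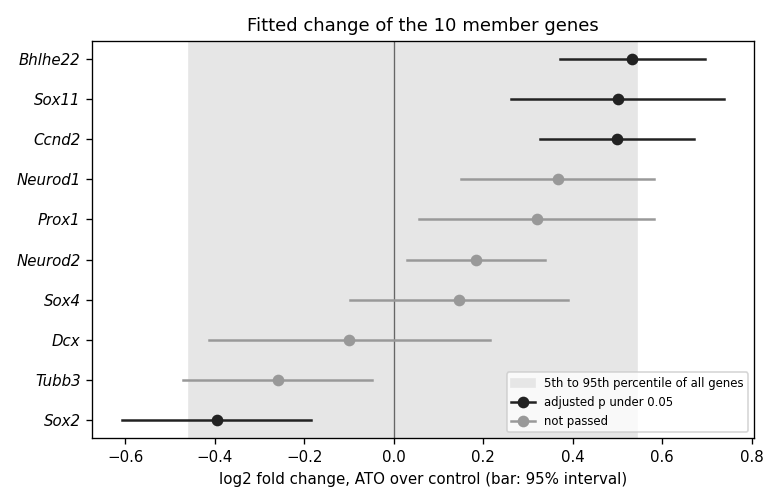
Fitted log2 fold change of ATO over control (horizontal axis) with its 95% interval for each of the 10 genes, black where the adjusted p was under 0.05 and grey otherwise. The shaded band spans the 5th to the 95th percentile of all genes, from -0.46 to 0.54, and every one of the 10 fitted values lies inside it.

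Counted another way, both ATO libraries lay above both controls for 6 of the 10 genes and below them for 2. Over all genes these shares were 24.8% and 23.4%. At an unadjusted p under 0.05, 6 of the 10 were higher and 2 lower, against 10.6% and 7.55% of all genes. Replicate 1 was the higher in both groups for Dcx, Prox1, Sox2, Neurod1 and Neurod2. Replicate 2 was the higher in both groups for Tubb3, Sox4 and Sox11. For Bhlhe22 and Ccnd2 the order of the replicates differed between the groups. These replicate differences were as large as the difference between the groups or larger for Dcx and Prox1. The authors' deposited table put the same genes past an adjusted p of 0.05: Bhlhe22 (0.000921), Ccnd2 (0.00308), Sox11 (0.0280) and Sox2 (0.0456). Of all genes in the authors' deposited table, 2.58% passed higher and 0.719% lower. By the log2 fold changes given there, none of the 10 changed more than 2-fold.

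**Figure D3:**
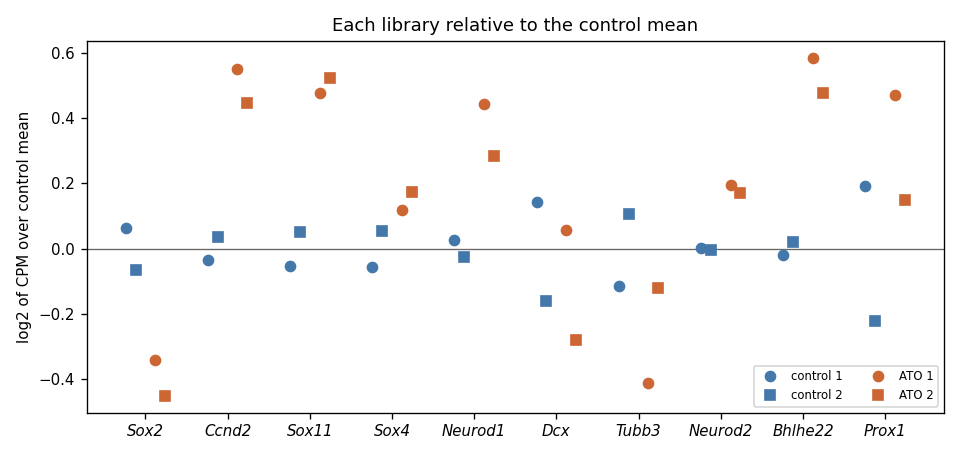
Log2 of each library's CPM over the control mean (vertical axis) for the 10 genes, blue for control and orange for ATO, circles for replicate 1 and squares for replicate 2. For Bhlhe22 and Ccnd2 the orange points lie between 0.45 and 0.59. Replicate 1 lies above replicate 2 in both groups for Dcx, Prox1, Sox2, Neurod1 and Neurod2, and below it for Tubb3, Sox4 and Sox11.

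Levels of different genes were compared only per length, with the deposited FPKM (fragments scaled by gene length and library size). In control the mean FPKM ran from Tubb3 (108) through Neurod2 (59.0), Bhlhe22 (38.0), Sox2 (21.0), Prox1 (11.8), Neurod1 (11.3), Ccnd2 (7.69), Sox4 (4.50) and Sox11 (2.41) to Dcx (1.53). Tubb3 stood above 98.1% of all genes in control FPKM, and Dcx above 22.9%. The order of the group means was the same in ATO. The order of Prox1 and Neurod1 was not beyond their spread in either group: Prox1 had 13.4 and 10.2 FPKM in control and Neurod1 11.4 and 11.1. In ATO the Sox2 values (16.8 and 15.3) also overlapped those of Prox1 (16.6 and 13.1) and Neurod1 (15.5 and 13.7).

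Ratios between members, chosen after their values were seen from 45 possible pairs, show how unequally the genes changed. There were 0.899 and 1.19 Sox11 counts per Dcx count in control against 1.38 and 1.80 in ATO. The ratio of Sox11 to Sox2 counts was 0.428 and 0.503 in control and 0.819 and 0.913 in ATO. For Bhlhe22 over Neurod2 it was 0.675 and 0.696 in control and 0.899 and 0.848 in ATO. These 3 ratios did not overlap between the groups. Each puts a gene that rose over a gene that fell or did not pass, so a gap was likely from the choice alone. Single genes too were often apart: 24.8% of all genes lay higher in both ATO libraries and 23.4% lower. The ratio of Bhlhe22 to Prox1 did overlap, at 1.11 and 1.52 in control and 1.39 and 1.61 in ATO. With 2 libraries against 2, an exact permutation test cannot go below a two-sided p of 0.333, so the ratios are given as values.

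Genes of the earliest step, the radial glia-like stem cell, were tested as a list of 23, with a median log2 fold change of 0.08. At an unadjusted p under 0.05, 9 were higher and 1 lower, against 10.6% and 7.55% of all genes. In this list 2 rose and 0 fell, against 2.87% and 0.859% of all genes. Those that rose were Id4 (0.34 ± 0.08, adjusted p = 0.0388), an inhibitor of bHLH factors that holds stem cells quiescent, and Fabp7 (0.52 ± 0.13, adjusted p = 0.0405), a fatty acid binding protein of radial glia and astrocytes. Neither held without control replicate 2 (0.192 and 0.244), without ATO replicate 1 (0.0932 and 0.0588) or in DESeq2's Wald test (0.0793 and 0.0739), and Id4 also did not hold without ATO replicate 2 (0.123). Nestin (Nes), the intermediate filament of stem cells, was at 12.0 and 11.4 CPM in control and 15.4 and 16.5 CPM in ATO and did not pass (log2 0.45 ± 0.14, adjusted p = 0.103). The homeobox gene Emx2 (log2 0.43, adjusted p = 0.0766) and vimentin (Vim, 0.38, adjusted p = 0.0888) did not pass either. The log2 fold change of Vim was 0.54 without ATO replicate 2, where it passed (adjusted p = 0.00444), and 0.20 without ATO replicate 1, where it did not (0.687). Sox1, a close relative of Sox2, was at 20.0 and 19.9 CPM in control and 16.4 and 13.9 CPM in ATO and did not pass (log2 -0.40 ± 0.13, adjusted p = 0.121).

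Of 20 cell division genes tested 0 passed in edgeR, in DESeq2's Wald test or in limma-voom; in edgeR 0 had an unadjusted p under 0.05. The proliferation marker Mki67 had 34 and 33 counts in control and 53 and 40 in ATO, a log2 fold change of 0.28 with a 95% interval from -0.37 to 0.93. The better counted Pcna, a clamp of DNA replication, had 564 and 572 counts in control and 682 and 625 in ATO, with a log2 fold change of 0.01 and a narrower 95% interval from -0.19 to 0.21. The summed CPM of the 20 tested genes was 134 to 136 in control and 134 to 142 in ATO. Of the 27 division genes listed, Cdk1, Ccnb1, Cdc20, Birc5, Aurkb, Bub1 and Ube2c were not among those tested. The counts and sums therefore do not cover these genes of mitosis. In the list of other D cyclins, their kinases and inhibitors, 3 of 12 rose and 0 fell, against 2.87% and 0.859% of all genes. The 3 were Cdkn1a (1.52 ± 0.18, adjusted p = 0.000174) and Cdkn1c (1.12 ± 0.22, 0.0107), which encode inhibitors of cyclin-dependent kinases, and Ccnd3, which encodes cyclin D3 (0.61 ± 0.13, adjusted p = 0.0155). The Ccnd3 and Cdkn1c calls were lost without control replicate 2 (0.128 and 0.0743) and without ATO replicate 1 (0.123 and 0.0503). Ccnd1 was at 46.5 and 51.1 CPM in control and 47.9 and 45.6 CPM in ATO, so that its groups overlapped (log2 -0.06, adjusted p = 0.779).

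**Figure D4:**
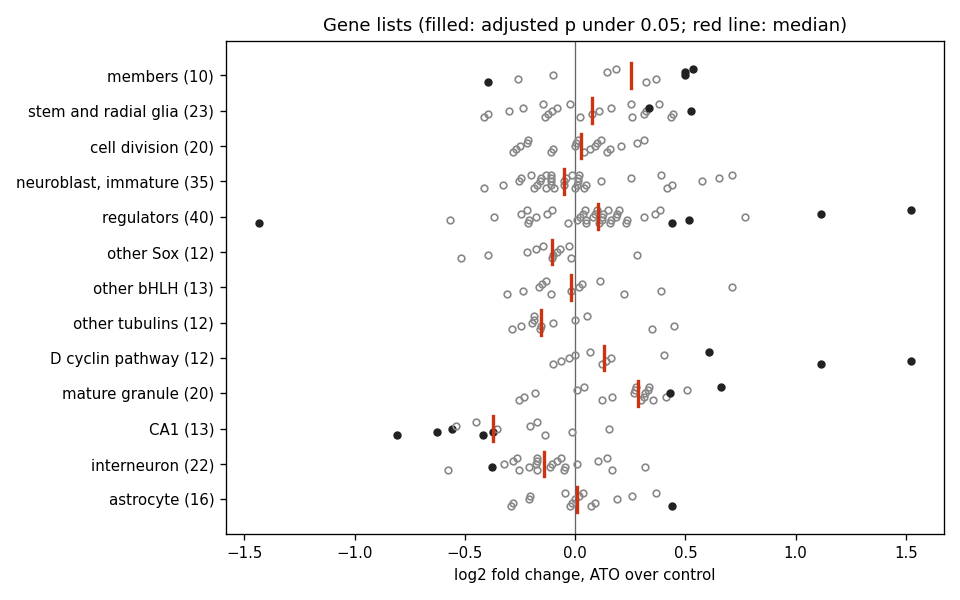
Log2 fold change of ATO over control (horizontal axis) of each tested gene in 13 lists, with the number of genes in brackets, filled points for an adjusted p under 0.05 and a red line at the list median. The 10 genes described here have a median of 0.25, the mature granule markers 0.29 and the CA1 markers -0.37.

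Of 35 further genes of neuroblasts and immature neurons 0 passed in edgeR, in DESeq2's Wald test or in limma-voom. In edgeR 3 were higher and 4 lower at an unadjusted p under 0.05, against 10.6% and 7.55% of all genes. The median log2 fold change of the 35 was -0.05. The growth cone protein gene Gap43 was at 158 and 164 CPM in control and 114 and 142 CPM in ATO (log2 -0.33 ± 0.09, adjusted p = 0.0721). The surface protein gene Cd24a had a log2 fold change of 0.57 ± 0.17 (adjusted p = 0.0779), Islr2 of 0.25 (0.0799) and the transcription factor gene Bcl11a of -0.25 (0.117). Without ATO replicate 2, Gap43 and Cd24a passed, at adjusted p of 0.00263 and 0.00616, and without control replicate 1 another gene of the list did. The calretinin gene Calb2, expressed in young granule neurons and in other hippocampal neurons, was at 46.0 and 54.2 CPM in control and 54.5 and 46.4 CPM in ATO, with a log2 fold change of 0.01. Stathmin (Stmn1, -0.15, adjusted p = 0.477) and the adhesion molecule gene Ncam1 (-0.13, 0.365) did not pass. The intermediate progenitor marker Eomes was not among the genes tested, so nothing can be said of it here.

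Among secreted and nuclear regulators of adult neurogenesis, 4 of 40 rose and 1 fell, against 2.87% and 0.859% of all genes. The median log2 fold change of the 40 was 0.10. Without control replicate 2 only 1 of the 40 passed, and without ATO replicate 1 only 2 did. Beside the inhibitor genes Cdkn1a and Cdkn1c, those that rose were Foxo3 (0.52 ± 0.11, adjusted p = 0.0165), whose product maintains the stem cell pool, and Creb1 (0.44 ± 0.10, adjusted p = 0.0258), a transcription factor that acts in the survival of newborn neurons. The hedgehog effector gene Gli1, a marker of stem cells that respond to the signal, fell by log2 1.44 ± 0.35 (adjusted p = 0.0393), from 36 and 57 counts to 21 and 18. Gli1 did not pass without control replicate 2 (0.262), ATO replicate 1 (0.0696) or ATO replicate 2 (0.0836), nor in DESeq2's Wald test (0.143) or limma-voom (0.0515). Foxo3 and Creb1 did not pass without control replicate 2 (0.119 and 0.184), nor Creb1 without ATO replicate 1 (0.219). Rest, which encodes a repressor of neuronal genes, had a log2 fold change of 0.15 (adjusted p = 0.788).

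Relatives of the Sox, bHLH and tubulin members did not pass in edgeR. At an unadjusted p under 0.05, 10.6% of all genes were higher and 7.55% lower. Of 12 other Sox genes 0 passed, 1 had an unadjusted p under 0.05, and 11 had a negative log2 fold change, among them the third SoxC gene Sox12 at -0.18 (adjusted p = 0.413). DESeq2's Wald test and limma-voom also called 0 of the 12, and 1 passed without control replicate 1. Of 13 other bHLH genes 0 passed in edgeR, DESeq2's Wald test or limma-voom, and 3 had an unadjusted p under 0.05. Neurod6, the relative of Neurod2 in pyramidal neurons, was at 213 and 212 CPM in control and 182 and 200.5 CPM in ATO (log2 -0.15 ± 0.08, adjusted p = 0.315). Of 12 other tubulin genes 0 passed in these 3 tools, 3 were lower at an unadjusted p under 0.05, and the median log2 fold change was -0.16. Tuba1a (-0.29, adjusted p = 0.151), Tubb2a (-0.25, 0.162), Tubb2b (-0.19, 0.365) and Tubb5 (-0.16, 0.315) had log2 fold changes near that of Tubb3. Without control replicate 1, 3 of the other tubulin genes passed, Tuba1a at an adjusted p of 0.0211 and Tubb2a at 0.0314.

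Over the 4 libraries, and among the genes with a mean CPM within 4-fold, the profile most like that of Bhlhe22 was that of Ccnd2, at a distance of 0.04 (Euclidean distance of log2 CPM centred on the gene's mean). Next came Herpud1 (0.05), a gene of protein degradation at the endoplasmic reticulum, and the co-chaperone gene Dnajb1 (0.10). After Bhlhe22, the genes nearest to Ccnd2 were Gfra2 (0.05), which encodes a receptor of the GDNF family, and Smarcd2 (0.06), which encodes a subunit of a chromatin remodelling complex. Those nearest to Sox11 were Crybg3, Ppp1r3d and Imp4 (each 0.04). With 4 libraries and 5423 to 9336 genes compared, some close matches are found for any profile.

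Marker lists of the cells that could carry these transcripts moved with the groups as follows. For comparison here and in the next paragraph, 2.87% of all genes passed higher and 0.859% lower. At an unadjusted p under 0.05 the shares of all genes were 10.6% and 7.55%. The median log2 fold change of mature granule neuron markers was 0.29; 12 of 20 were higher and 0 lower at an unadjusted p under 0.05, and 2 rose, Trpc6 (0.66 ± 0.12) and Npnt (0.43 ± 0.11); Npnt did not pass in DESeq2's Wald test (0.1296), with library size only (0.0511), or without either control replicate 2 (0.261) or ATO replicate 1 (0.194). Their summed CPM was 1212 to 1341 in control and 1384 to 1562 in ATO, and the calbindin gene Calb1 had a log2 fold change of 0.04. CA1 pyramidal neuron markers had a median of -0.37, and 5 of 13 fell (0 without control replicate 2, 1 without control replicate 1 and 2 without ATO replicate 1); their summed CPM was 1223 to 1253 in control and 852 to 1120 in ATO. Among the CA1 markers that fell were Dcn (log2 -0.56), Pex5l (-0.37), Wfs1 (-0.42) and Ccn3 (-0.81). Dcn is also in the list of leptomeningeal and fibroblast markers, so the same gene is counted in both lists. Of the granule markers 8 passed without ATO replicate 2, 5 without control replicate 1 and 1 without each of the other libraries. Interneuron markers, of which Npy fell (1 of 22, log2 -0.38), had a median of -0.14 and summed CPM of 1626 to 1700 in control and 1469 to 1525 in ATO. Npy did not pass when any 1 library was left out (adjusted p from 0.0611 to 0.135), nor in DESeq2's Wald test (0.115) or with library size only (0.05002). Astrocyte markers, which share Sox2 expression, had a median of 0.01, and 1 of 16 rose, the connexin gene Gjb6 (0.44 ± 0.09; adjusted p of 0.116 without control replicate 2 and 0.1095 without ATO replicate 1); their summed CPM was 6672 to 6831 in control and 6725 to 6988 in ATO. Of the astrocyte markers 3 passed without control replicate 1, 2 without ATO replicate 2 and 3 with mitochondrial genes left out. Of 17 markers of oligodendrocyte precursors 1 rose, Gpr17 (0.43 ± 0.09, adjusted p of 0.0893 without control replicate 2), and 1 fell, Cspg4 (-0.51 ± 0.13, adjusted p = 0.0496, which became 0.0518 in limma-voom, 0.153 in DESeq2's Wald test and 0.164, 0.112 and 0.281 without control replicate 1, control replicate 2 and ATO replicate 2), with summed CPM of 531 to 614 in control and 552 to 560 in ATO. Of these precursor markers 0 to 3 passed when 1 library was left out.

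Transcripts that mark tissue beside the hippocampus proper also differed between the groups. All 20 choroid plexus markers rose, with summed CPM of 177 to 243 in control and 3416 to 4269 in ATO, and 8 of 13 ependymal markers rose, with sums of 23.1 to 27.2 and 46.0 to 64.6 (2 or 3 of the 13 passed without either control or without ATO replicate 1). Of 16 leptomeningeal markers Igf2 and Igfbp2 rose and Dcn fell, with sums of 153 to 190 and 206 to 253; 10 passed without ATO replicate 2, 6 without control replicate 1 and 1 without control replicate 2. None of the markers in these lists was at 0 in any of the 4 libraries. Their part in the changes of the members, and of the stem cell and neuroblast genes named above, was not tested. In the remaining lists, 0 of 14 CA3 and CA2 markers, 0 of 6 Cajal-Retzius markers and 0 of 14 microglial markers passed in edgeR, limma-voom or DESeq2's Wald test; at an unadjusted p under 0.05 in edgeR the numbers were 0, 2 and 1. Of 14 oligodendrocyte markers Opalin fell (log2 -0.66), of 15 endothelial markers Kdr fell (-0.63), and of 13 markers of neighbouring brain regions Ppp1r1b rose (0.46). These calls did not hold under every setting: Opalin did not pass in the fits that omitted control replicate 2 (adjusted p = 0.0638) or ATO replicate 1 (0.06396), and neither Ppp1r1b (0.0722 and 0.06395) nor Kdr (0.138 and 0.05595) in those that omitted control replicate 1 or ATO replicate 2. Kdr also did not pass in DESeq2's Wald test (0.0655).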

How the data were processed

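The authors deposited 1 table with, per the file headers, counts and FPKM for every gene and library, and the authors' log2 fold change, p-value and adjusted p-value. Per the submitters' processing notes the build was GRCm38 and the tools included HTSeq 0.6.1, HISAT2 2.0.1, limma 3.47.15 and cutadapt 1.9.1. The sources used here do not give the strand of counting, so overlapping genes can share reads. Deposited counts were tested over all 15713 genes in edgeR 4.0.16 under R 4.3.3, after filterByExpr, which removed 0 genes, and with TMM factors of 0.994 to 1.01, by quasi-likelihood, comparing ATO with control without covariates, with Benjamini-Hochberg adjustment. A gene passed, rose or fell where this p was under 0.05. SE is the log2 fold change divided by the square root of F, and 95% intervals use the moderated degrees of freedom. The common dispersion was 0.00513. Counts were also simulated for 15713 genes from the dispersions fitted here, with 50 genes changed at each fold, all at 5 CPM or more. In them 24% of 1.25-fold, 64% of 1.5-fold and 98% of 2-fold changes were recovered, and 6 of 149 calls were false. These shares hold for counts that follow the fitted model. They do not apply to genes under 5 CPM such as Mki67, nor give the share of false calls in the real data. Alternatives were DESeq2 1.42.0, limma-voom (limma 3.58.1), library size only, DESeq2's size factors in edgeR, no filter, a mean of at least 5 CPM, no mitochondrial genes, the replicate block and leaving out each library. Because filterByExpr removed 0 genes, the fit with no filter repeats the main fit and is no separate check. Positions came from GENCODE vM21 (GRCm38).

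The 10 members and the 22 other gene lists were chosen with earlier results of these data known. Named genes are all members, up to 4 genes of smallest p per list, close relatives and classical markers fixed by name. Sox2ot, 9330179D12Rik, Cerkl and Prox1os are named for their overlap. Every list was described by counts and medians, without a set test. Values of some single genes of these lists are not reported here.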

Additional observations from a re-analysis of the deposited data

How the results depend on the processing

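Bhlhe22 and Ccnd2 passed in all 12 alternatives, of which the fit with no filter repeats the main fit. The other values of the members under settings that ended a call stand beside each gene. Over all genes 451 passed higher and 135 lower, against 252 and 64 in DESeq2's Wald test and, when 1 library was left out, 180 to 443 higher and 42 to 168 lower (180 and 42 without control replicate 2, 300 higher without ATO replicate 1). Among the members 2 to 4 passed higher and 0 to 1 lower when 1 library was left out; 0 passed lower with library size only or in DESeq2's Wald test, which called 2 higher. The replicate numbers are shared by the groups, but nothing in the labels pairs the libraries: across 12086 genes the difference of replicate 1 and 2 correlated between the groups with r = 0.208. With the replicate block 890 genes passed higher and 476 lower, and 5 and 2 of the members, where Neurod1 (adjusted p = 0.0153), Prox1 (0.00319) and Tubb3 (0.0102) were added. In that fit the passing genes also went from 0 to 6 of 35 neuroblast and immature neuron genes (among them Gap43 at 0.00327, Cd24a at 0.00966, Islr2 at 0.0163 and Bcl11a at 0.0213), 2 to 8 of 23 stem cell genes, 2 to 11 of 20 granule markers, 5 to 8 of 13 CA1 markers, 1 to 3 of 22 interneuron markers, 1 to 5 of 16 astrocyte markers, 3 to 8 of 16 leptomeningeal markers, 1 to 3 of 15 endothelial markers and 1 to 2 of 14 oligodendrocyte markers, and from 0 to 1 of the Sox and 0 to 2 of the tubulin relatives. Without 1 library the sign turned, with no gene passing, for Dcx (log2 -0.28 to 0.06197), Calb2 (-0.11 to 0.13), Stmn1 (-0.31 to 0.016), Ccnd1 (-0.13 to 0.0034), Rest (-0.093 to 0.43) and Calb1 (-0.024 to 0.10). The cause was not tested. Low counts limit what genes such as Mki67 can show (95% interval of the log2 fold change from -0.37 to 0.93).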
